A study of Mus musculus with 24 samples.

Results

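The genes of cholesterol synthesis, sensing and transport were followed in the prefrontal cortex (PFC) and nucleus accumbens (NAc) of mice under chronic jet lag (CJL). The set holds 29 of the 48526 genes in the expression files. Members were chosen by gene symbol, from a list of 18 enzymes of synthesis, 5 regulators that sense sterols and 6 genes of sterol transport and removal. Each symbol matched 1 gene, and all 29 passed the filter on low values in both regions, an FPKM (fragments per kilobase of transcript, scaled to the fragments mapped in the library) of at least 1 in at least 3 libraries. RNA-seq was done on 24 libraries in 8 groups of 3, that is CJL and control (Ctrl) lighting at Zeitgeber Time 1 (ZT1, early light phase) and ZT13 (early dark phase) in each region. All mice were male C57BL/6J, bought at 8 weeks of age and entrained for 2 weeks to 12 h of light and 12 h of dark with food available at all times. In CJL mice the light cycle was then moved 6 h earlier every 2 days, in Ctrl mice it stayed as it was, and tissue was taken on Day 10. Each lighting and time had 3 mice, and both regions were taken from the same animals, but no label tells which libraries share a mouse. The pieces were dissected by hand and hold neurons, glia and vessels together, so a change in the number of cells of a type and a change in RNA per cell cannot be told apart.

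Brain cholesterol is made within the brain, because the lipoproteins of blood do not cross the blood-brain barrier. Enzymes of the mevalonate pathway turn acetyl-CoA into isoprenoid units, squalene synthase and squalene epoxidase commit these units to sterols, and later enzymes convert lanosterol to cholesterol. When sterols are low, SCAP escorts the transcription factor SREBP-2 from the endoplasmic reticulum to the Golgi, where it is released to switch on most of these enzymes, and the INSIG proteins hold the complex back when sterols are high. Oligodendrocytes make much of the cholesterol, for myelin, astrocytes pass it to neurons on particles that carry apolipoprotein E, and neurons dispose of it through cholesterol 24-hydroxylase.

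Expression of the 29 genes spanned a wide range. Apoe, the main lipid carrier of the brain, was the most abundant, with a mean of 389.3 FPKM over the 24 libraries (range 195.6 to 575.1). Cyp46a1, cholesterol 24-hydroxylase, followed with 78.7 FPKM, and Hmgcs1, which makes HMG-CoA, was the most abundant enzyme of synthesis with 67.6 FPKM. The enzymes that follow were lower, with 7.78 FPKM for mevalonate kinase (Mvk), 18.3 FPKM for phosphomevalonate kinase (Pmvk), 7.16 FPKM for mevalonate diphosphate decarboxylase (Mvd) and 9.0 FPKM for isopentenyl diphosphate isomerase (Idi1). At the branch to sterols, Fdps (farnesyl diphosphate synthase) averaged 21.9 FPKM, Fdft1 (squalene synthase) 22.2 FPKM, Sqle (squalene epoxidase) 17.8 FPKM and Lss (lanosterol synthase) 8.4 FPKM, and Acat2, the thiolase at the start of the pathway, 17.3 FPKM. The 8 enzymes after lanosterol lay between 5.7 FPKM for Hsd17b7, a sterol keto reductase, and 28.5 FPKM for Msmo1, which removes methyl groups. The regulator Srebf2, which encodes SREBP-2, averaged 41.0 FPKM, Insig1 24.7, Scap 23, Srebf1 17.5 and Insig2 16.0 FPKM. Of the transport genes, the exporters Abcg1 and Abca1 averaged 18.4 and 5.8 FPKM, and Npc1, which moves cholesterol out of lysosomes, 15.8 FPKM. Stard4, which carries sterol between membranes, had the lowest mean of the set, 5.58 FPKM. These levels are per transcript length. Within a region, the highest of the 4 group means exceeded the lowest by a ratio of 1.03 (Abcg1, Ebp) to 1.68 (Apoe) in PFC and of 1.04 (Acat2) to 1.48 (Sqle) in NAc.

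**Figure D1:**
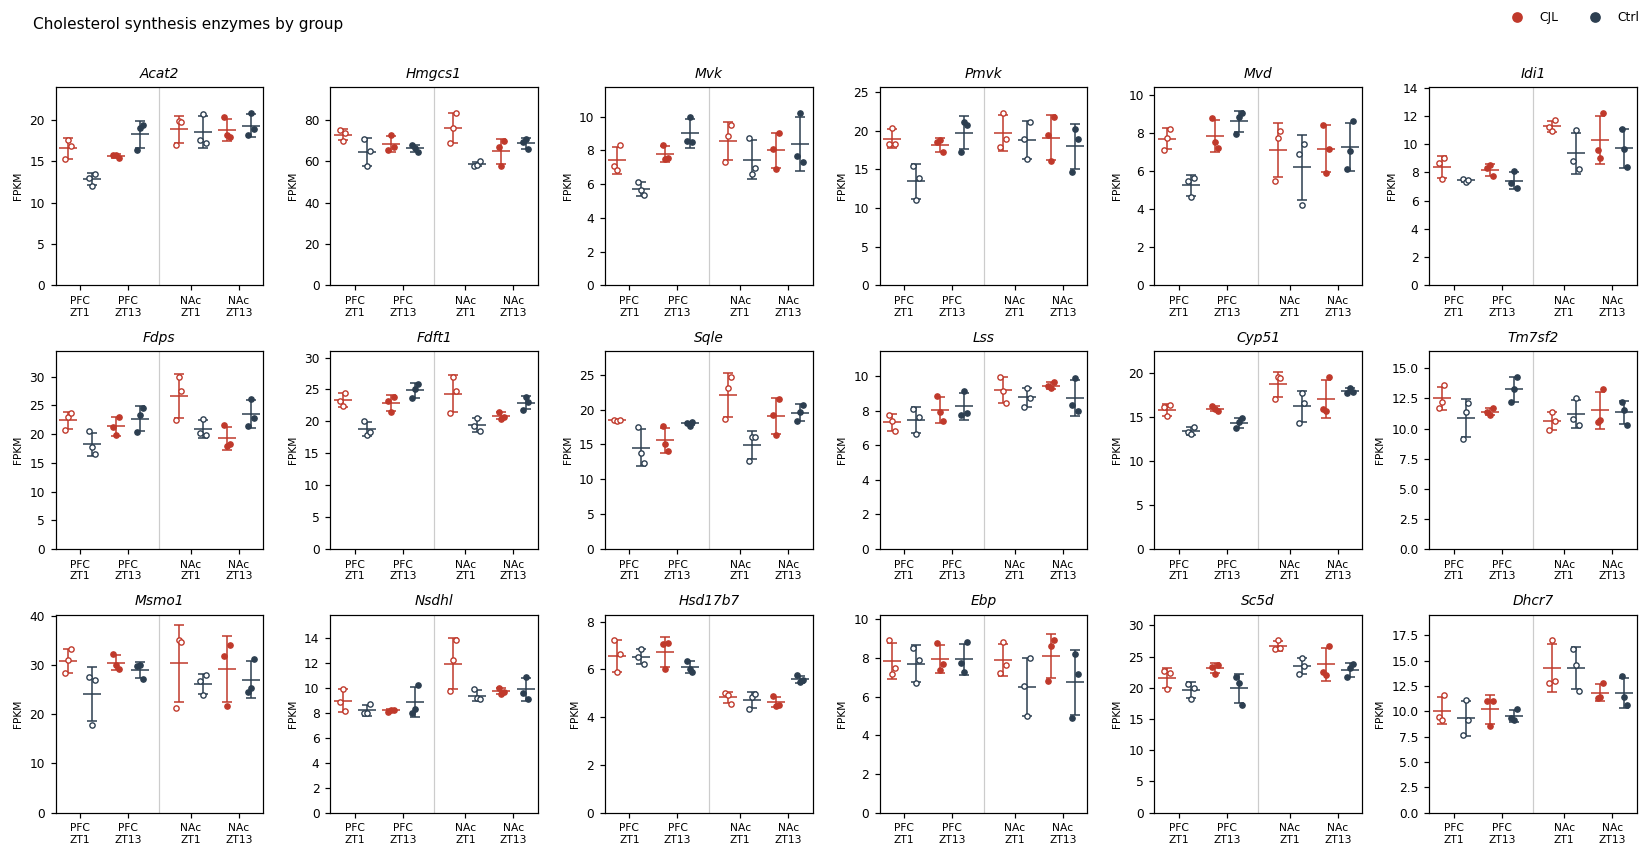
FPKM of the 18 enzymes of cholesterol synthesis in each library, by region and time; open points are ZT1, filled points ZT13, red CJL and dark blue Ctrl, and bars are the mean ± SD (n = 3 libraries). In PFC the dark blue ZT1 points of Mvd, Mvk, Acat2, Pmvk and Fdft1 lie below all other PFC points.

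Promoter windows of 250 bases before to 50 after a start site were matched to 23 of the 29 members in RefSeq (GRCm38.p6), 33 windows in all. They are shown here for Acat2, Mvk, Mvd and Insig1, which are among the members whose levels differed in the PFC. That of Hmgcs1 is shown too, as the only member window with the core letters of a sterol regulatory element. Capitals mark matches on either strand to that core, TCACNCCAC, to CCAAT (the NF-Y box) and to CACGTG (an E-box), and a sequence runs 5′ to 3′ on the gene's strand.
Acat2, chr17:12960676-12960975 (- strand): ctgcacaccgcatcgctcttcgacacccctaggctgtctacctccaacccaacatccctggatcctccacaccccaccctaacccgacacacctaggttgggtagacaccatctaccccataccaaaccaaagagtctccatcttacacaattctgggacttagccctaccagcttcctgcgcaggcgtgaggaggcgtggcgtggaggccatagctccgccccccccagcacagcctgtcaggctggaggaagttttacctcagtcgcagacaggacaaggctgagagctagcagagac
Hmgcs1, chr13:119690101-119690400 (+ strand): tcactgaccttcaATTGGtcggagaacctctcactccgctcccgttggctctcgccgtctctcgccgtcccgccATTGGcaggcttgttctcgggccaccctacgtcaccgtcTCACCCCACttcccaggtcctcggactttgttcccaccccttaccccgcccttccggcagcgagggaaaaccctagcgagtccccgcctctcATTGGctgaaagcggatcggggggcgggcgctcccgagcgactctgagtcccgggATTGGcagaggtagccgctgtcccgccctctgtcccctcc
Mvk, chr5:114444019-114444318 (+ strand): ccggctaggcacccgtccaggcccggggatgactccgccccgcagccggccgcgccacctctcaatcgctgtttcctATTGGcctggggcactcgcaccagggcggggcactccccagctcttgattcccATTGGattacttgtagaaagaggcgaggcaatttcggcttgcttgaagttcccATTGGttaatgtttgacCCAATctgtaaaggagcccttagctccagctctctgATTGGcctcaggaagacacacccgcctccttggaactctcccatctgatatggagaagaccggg
Mvd, chr8:122443373-122443672 (- strand): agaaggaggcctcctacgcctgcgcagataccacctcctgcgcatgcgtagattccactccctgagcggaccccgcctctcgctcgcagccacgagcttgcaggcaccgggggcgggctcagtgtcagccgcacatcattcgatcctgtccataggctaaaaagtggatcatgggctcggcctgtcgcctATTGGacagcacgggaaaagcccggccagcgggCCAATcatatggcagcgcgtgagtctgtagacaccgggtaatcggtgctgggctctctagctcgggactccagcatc
Insig1, chr5:28071162-28071461 (+ strand): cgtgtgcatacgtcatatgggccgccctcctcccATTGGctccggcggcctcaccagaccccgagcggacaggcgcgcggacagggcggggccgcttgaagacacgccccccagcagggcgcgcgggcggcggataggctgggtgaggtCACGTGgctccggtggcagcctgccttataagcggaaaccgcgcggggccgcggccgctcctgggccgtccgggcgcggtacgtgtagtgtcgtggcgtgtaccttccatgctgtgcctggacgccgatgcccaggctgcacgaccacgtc
The core was found in 1 of the 33 windows, that of Hmgcs1 at position -137 from the start site, against 1.24% of all 32851 windows of that length. CCAAT was present in the windows of 19 of the 23 members (20 of 33 windows, against 37.41% of all windows) and CACGTG in those of 6 members (7 windows, against 7.15%). The window of Mvk holds 5 CCAAT boxes, that of Mvd 2, that of Insig1 1 together with an E-box, and that of Acat2 neither. Of the other members that differed in the PFC, Fdft1 had no window and those of Pmvk and Apoe are not shown. A window of Pmvk holds 1 CCAAT box, and the windows of Apoe hold no match. A match is a description of letters and not of a bound site.

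Library checks bear on the values below. Cortical markers separated the regions as labelled, with Slc17a7 at a median of 307.4 FPKM in PFC and 54.3 FPKM in NAc, and striatal markers in the other direction, with Drd1 at 33.4 FPKM in NAc and 6.16 FPKM in PFC. In 7 libraries (4 of PFC and 3 of NAc) markers of neighbouring tissue (choroid plexus, olfactory bulb, or thalamus with hypothalamus) lay at least 1.5 log2 units above the median of their region. Those are PFC ZT1 CJL 2, ZT13 CJL 1, ZT1 Ctrl 1 and ZT13 Ctrl 1, and NAc ZT1 CJL 2, ZT13 CJL 3 and ZT13 Ctrl 3. Short of that threshold were PFC ZT13 Ctrl 2 (1.39, choroid plexus) and NAc ZT1 CJL 3 (1.25, thalamus with hypothalamus). Runs without the 7 libraries kept both of these. NAc ZT1 CJL 3 also had the lowest mean log2 level of striatal markers among NAc libraries, 5.54. Transcripts of the mitochondrial genome made up 15.5% to 21.3% of the FPKM in the ZT1 Ctrl libraries of PFC and 13.6% to 14.6% in the other PFC libraries. The part of this share in the members' differences was not tested.

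In the PFC at ZT1, CJL mice had higher levels of 2 enzymes, 1 regulator and 1 transport gene than Ctrl mice. Mvd, which decarboxylates mevalonate diphosphate, measured 7.15, 7.75 and 8.25 FPKM in CJL mice and 5.52, 4.63 and 5.66 FPKM in Ctrl mice. The CJL values were all above the Ctrl values, with means of 7.72 ± 0.547 FPKM in CJL mice and 5.27 ± 0.557 FPKM in Ctrl mice (SD, n = 3 each; log2 fold change 0.54, SE 0.106, limma adjusted p = 0.0316). Acat2, the cytosolic thiolase that condenses acetyl-CoA, measured 15.2, 17.6 and 16.8 FPKM in CJL mice and 13.0, 12.0 and 13.4 FPKM in Ctrl mice. These too did not overlap (log2 fold change 0.37, SE 0.0821, limma adjusted p = 0.0499). Insig1, the INSIG protein that SREBP-2 itself induces, measured 25.1, 23.6 and 29 FPKM in CJL mice and 20.2, 18.2 and 20.1 FPKM in Ctrl mice. The CJL values were all higher (log2 fold change 0.40, SE 0.0847, limma adjusted p = 0.0424). Apoe measured 345.1, 434.0 and 354.0 FPKM in CJL mice and 200.5, 277.5 and 195.6 FPKM in Ctrl mice. The groups did not overlap (log2 fold change 0.76, SE 0.165, limma adjusted p = 0.0462).

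Of the 18 enzymes, 2 rose and 0 fell in this comparison, where 1.17% of the 14914 genes tested rose and 0.416% fell. A log2 fold change above 0 was found for 17 of 18 enzymes, against 57.9% of all genes, 10 were higher at an unadjusted P under 0.05 (13.8% of all genes) and 0 lower (7.39% of all genes), and 9 had CJL values all above the Ctrl values (17% of all genes). Their median log2 fold change was 0.22, against 0.04 for all genes. Fdft1, squalene synthase (log2 fold change 0.31, limma adjusted p = 0.0531), and Pmvk (0.51, adjusted p = 0.06) narrowly missed the threshold, and Cyp51, lanosterol demethylase, had 0.24 (adjusted p = 0.0719). Of the 5 regulators 1 rose and of the 6 transport genes 1 rose, with 0 falls. Srebf2, the gene of the pathway's own activator, differed by 0.02 and Scap by -0.07. These 4 calls were close to the threshold. No member was called with no filter on low FPKM, with a replicate block, with the 2 groups fitted alone, or without the 4 PFC libraries high in neighbouring-tissue markers, and none without CJL replicate 1, 2 or 3 or Ctrl replicate 2 or 3, whereas 5 members were called without Ctrl replicate 1, where Apoe and Acat2 were not among them. With median-of-ratios scaling, with quantile normalization and after a correction for GC content and transcript length, Mvd was the 1 member called. The shares of all genes called were no steadier, with 237 genes called in all, 407 without Ctrl replicate 1 and 6 to 35 without any 1 of the other libraries. Of the genes at an unadjusted P under 0.05, 65.2% had a higher level in CJL mice, and 49.7% did so with median-of-ratios scaling.

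Markers of other cells and tissues were set beside these genes. The 10 myelin markers had a median log2 fold change of 0.22 between CJL and Ctrl mice at ZT1 in PFC, with 0 of them called, and their summed level was 987.9 to 1388.8 FPKM in CJL libraries and 934.8 to 1134 FPKM in Ctrl libraries. The 6 markers of oligodendrocyte precursors and newly formed oligodendrocytes summed to 62.2 to 94.6 FPKM in CJL libraries and 49.3 to 52.5 FPKM in Ctrl libraries, and 1 of them rose. Of the 6 neuron markers 1 rose, with a median of 0.11 and sums of 1975 to 2152.8 FPKM in CJL libraries and 1978.9 to 2081 FPKM in Ctrl libraries. The 10 astrocyte markers summed to 867.4 to 890.5 FPKM in CJL libraries and 816.1 to 925.7 FPKM in Ctrl libraries. The 9 striatal markers had a median of 0.37, with 8 above 0. Of the markers that passed the filter, the 3 ependymal had 0.47 (3 above 0) and the 6 of thalamus and hypothalamus 0.27 (4 above 0). The 6 olfactory bulb markers that passed it had -0.15 (4 below 0). The 8 of that list summed to 10.1 to 168.3 FPKM in CJL libraries and 15.4 to 63.2 FPKM in Ctrl libraries. In these tissue lists 0 were called. The part of these cells and tissues in the members' differences was not tested.

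In Ctrl mice, PFC levels of 5 enzymes and Insig1 were higher at ZT13 than at ZT1. The same ZT1 Ctrl libraries stand in this comparison and in the one above, so the fold changes are not independent of each other. Mvd measured 7.99, 8.84 and 9.07 FPKM at ZT13, and 5.52, 4.63 and 5.66 FPKM at ZT1 (log2 fold change 0.71, SE 0.106, limma adjusted p = 0.00584). Mvk measured 8.54, 10.0 and 8.47 FPKM at ZT13, and 6.12, 5.67 and 5.34 FPKM at ZT1 (0.65, SE 0.102, limma adjusted p = 0.00706). Neither gene had ZT13 and ZT1 values that overlapped. Acat2 measured 16.4, 19.0 and 19.4 FPKM at ZT13, and 13.0, 12.0 and 13.4 FPKM at ZT1 (0.51, SE 0.0821, limma adjusted p = 0.00745). Fdft1 measured 23.6, 25.1 and 25.9 FPKM at ZT13, and 20.1, 17.9 and 18.4 FPKM at ZT1 (0.40, SE 0.0705, limma adjusted p = 0.00986). For both, ZT1 libraries were all below the ZT13 libraries. Pmvk measured 17.3, 21.2 and 20.8 FPKM at ZT13, and 15.5, 11 and 13.9 FPKM at ZT1 (0.56, SE 0.120, limma adjusted p = 0.0162). Insig1 measured 26.2, 27.3 and 23.7 FPKM at ZT13, and 20.2, 18.2 and 20.1 FPKM at ZT1 (0.40, SE 0.0847, limma adjusted p = 0.0159). These ranges also did not overlap.

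Of the 18 enzymes 5 rose and 0 fell, in a comparison in which 8.8% of all genes rose and 3.54% fell. At an unadjusted P under 0.05, 8 enzymes were higher at ZT13 (20.7% of all genes) and 0 lower (9.91%), and 16 of 18 had a log2 fold change above 0, against 58.6% of all genes. For 7 enzymes the ZT13 values were all above the ZT1 values, against 21.9% of all genes. The enzymes' median log2 fold change was 0.22, and that of all genes 0.06. Of all genes past the unadjusted threshold, 67.7% were those with more at ZT13, and median-of-ratios scaling brought this to 49.1%. Of the 5 regulators 1 rose, of the 6 transport genes 0, and Apoe had a log2 fold change of 0.51 (limma adjusted p = 0.0618). The calls of Mvd, Mvk and Acat2 held under every alternative run. Those of Pmvk and Insig1 were lost after the GC and length correction (log2 fold change 0.29 each) and without ZT13 Ctrl replicate 2 (0.51 and 0.35), that of Insig1 also without ZT1 Ctrl replicate 2 and that of Pmvk without ZT13 Ctrl replicate 3. With the 2 groups fitted alone 3 members were called, and leaving out 1 library at a time gave 4 to 9 (9 where ZT13 Ctrl replicate 1 was left out). The shares of all genes moved more, since 1840 genes were called with all libraries, 2848 without ZT13 Ctrl replicate 1 and 313 without ZT13 Ctrl replicate 2, with 418 to 1342 without each of the others and 285 with the 2 groups fitted alone.

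Markers of other cells and tissues moved in this comparison as well. Of the 6 neuron markers 2 rose and 0 fell, with a median log2 fold change of 0.10 and sums of 2090.3 to 2202.7 FPKM at ZT13, and 1978.9 to 2081 FPKM at ZT1. Of the 6 endothelial markers 1 rose and 3 fell, with a median of -0.33. The 6 olfactory bulb markers that passed the filter had a median of -1.37, with 6 of 6 below 0, and the 8 of the list summed to 9.28 to 14.1 FPKM at ZT13, and 15.4 to 63.2 FPKM at ZT1. The 3 choroid plexus markers that passed it had a median of 2.09, and the 8 of that list summed to 21.7 to 615.3 FPKM at ZT13, and 2.08 to 12 FPKM at ZT1. None of these 2 lists' genes passed limma's adjusted threshold. The part of these cells and tissues in the members' differences was not tested.

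**Figure D2:**
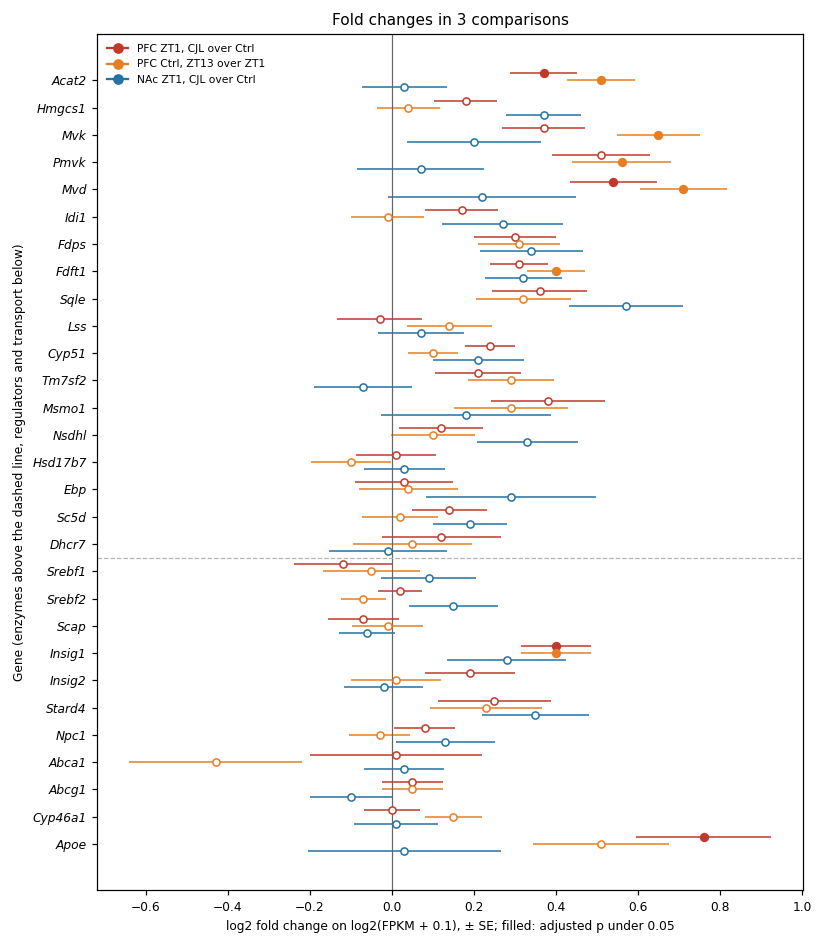
Log2 fold changes on log2(FPKM + 0.1) with SE for the 29 members in PFC at ZT1 (CJL over Ctrl), in PFC of Ctrl mice (ZT13 over ZT1) and in NAc at ZT1 (CJL over Ctrl). Filled points have an adjusted p under 0.05 by limma: 4 members in the first, 6 in the second and 0 in the third.

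The ZT1 Ctrl group had the lowest PFC levels of several enzymes. Its mean was the lowest of the 4 PFC groups for 14 of 18 enzymes (39.1% of all genes tested), and for 4 of the 11 regulators and transport genes. For 5 enzymes, namely Mvd, Fdft1, Acat2, Pmvk and Mvk, and for Insig1, all 3 ZT1 Ctrl libraries lay below all 9 others of the PFC (7.6% of all genes). The 18 enzymes summed to 311.4 to 327.3 FPKM in ZT1 CJL, 247.4 to 286.3 FPKM in ZT1 Ctrl, 304.5 to 314.6 FPKM in ZT13 CJL and 304.5 to 318.2 FPKM in ZT13 Ctrl libraries. The groups other than ZT1 Ctrl overlapped in this sum. These counts describe the libraries that gave the 2 comparisons above and are not a further test.

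At ZT13 in the PFC, no member passed the test between CJL and Ctrl mice. Limma called 0 members, against 0.0201% of all genes higher and 0% lower. With an unadjusted P under 0.05, 2 enzymes had higher levels in CJL mice (5.73% of all genes) and 1 a lower level (6.92%). Acat2 measured 15.8, 15.7 and 15.4 FPKM in CJL mice and 16.4, 19.0 and 19.4 FPKM in Ctrl mice (log2 fold change -0.22, SE 0.0821, limma adjusted p = 0.334). Cyp51 measured 16.3, 15.9 and 15.7 FPKM in CJL mice and 13.8, 14.4 and 14.9 FPKM in Ctrl mice (0.15, limma adjusted p = 0.36). Acat2 was lower and Cyp51 higher in each CJL library, without passing the test. Sc5d, sterol C5-desaturase, measured 23.4, 22.2 and 23.7 FPKM in CJL mice and 21.8, 20.7 and 17.3 FPKM in Ctrl mice (0.22, SE 0.0922, limma adjusted p = 0.372). Cyp46a1 measured 87.8, 81.6 and 84.5 FPKM in CJL mice and 88, 99.3 and 100.7 FPKM in Ctrl mice (-0.18, SE 0.0686, limma adjusted p = 0.345). Npc1 measured 17.4, 15.6 and 15.8 FPKM in CJL mice and 15.2, 14 and 13.9 FPKM in Ctrl mice (0.18, SE 0.0742, limma adjusted p = 0.367). These 3 genes also had CJL and Ctrl values that did not overlap. Of all 14914 genes tested, 1182 had CJL values all higher and 1487 all lower. The enzymes' median log2 fold change was -0.06, and that of all genes -0.02. The 10 myelin markers had a median of 0.29 in this comparison and the 10 astrocyte markers 0.24, with 10 of 10 above 0 in each list. The 6 olfactory bulb markers that passed the filter had 1.19, with 6 of 6 above 0 and 5 not overlapping. The 3 choroid plexus markers that passed it had -0.79, with 3 of 3 below 0. In these lists 0 were called, and their part in the members' differences was not tested.

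Between ZT13 and ZT1 in CJL mice, 0 members were called in the PFC, where 0.0335% of all genes rose and 0% fell, and Srebf2 was the only member at an unadjusted P under 0.05 (2.96% of all genes were lower at ZT13 and 3.92% higher). Sqle, squalene epoxidase, measured 17.6, 15.1 and 14.1 FPKM at ZT13, and 18.5, 18.4 and 18.5 FPKM at ZT1 (log2 fold change -0.25, SE 0.116, limma adjusted p = 0.725). Srebf2 measured 43.8, 40.0 and 40.5 FPKM at ZT13, and 46.1, 44.8 and 45.5 FPKM at ZT1 (-0.14, SE 0.0545, limma adjusted p = 0.675). In both the ZT13 values lay below the ZT1 values, as they did for 1074 of the 14914 genes tested. Lss measured 8.82, 7.92 and 7.38 FPKM at ZT13, and 7.76, 7.39 and 6.81 FPKM at ZT1 (0.13, SE 0.104, limma adjusted p = 0.87). Tm7sf2, a sterol reductase, measured 11.4, 11.1 and 11.7 FPKM at ZT13, and 11.7, 12.2 and 13.6 FPKM at ZT1 (-0.13, SE 0.105, limma adjusted p = 0.872). Stard4 measured 4.52, 5.24 and 4.49 FPKM at ZT13, and 6.03, 5.19 and 6.1 FPKM at ZT1 (-0.28, SE 0.137, limma adjusted p = 0.758). The ranges of Lss and Stard4 overlapped between the times. The enzymes' median was -0.02, and that of all genes 0. The 10 myelin markers had a median of 0.23, with 9 above 0. The 3 choroid plexus markers that passed the filter had 1.2, with 3 above 0. The 6 olfactory bulb markers that passed it had -0.28, with 5 below 0. In these lists 0 were called, and their part in the members' differences was not tested.

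The difference of the CJL effect between the times, ZT13 minus ZT1, passed limma's test for 0 members, against 0.0536% of all genes negative and 0.0268% positive. At an unadjusted P under 0.05, 8 enzymes had a negative difference (13.1% of all genes) and 0 a positive one (5.3%). The differences were -0.59 for Acat2 (SE 0.116, limma adjusted p = 0.0586), -0.68 for Mvd (SE 0.149, adjusted p = 0.0772) and -0.43 for Fdft1 (SE 0.0997, adjusted p = 0.0844). Insig1 had -0.49 (SE 0.120, limma adjusted p = 0.09) and Apoe -0.68 (SE 0.233, adjusted p = 0.164). The median of the enzymes was -0.27, and that of all genes -0.05. This difference and the PFC comparisons above share libraries, so none of them is independent of the others. If ZT13 Ctrl replicate 1 was left out 5 members were called, against 796 of all genes. If ZT1 Ctrl replicate 1 was left out 1 member was called, against 58 of all genes. Without the 4 libraries high in neighbouring-tissue markers 1 member was called, against 89 of all genes. With all libraries 12 of all genes were called, so the whole table moved with the members.

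In the NAc no gene of the table passed limma's test in any comparison within the region, so 0 members were called (0% of all genes). At ZT1, CJL against Ctrl, 5 enzymes were higher at an unadjusted P under 0.05 (5.05% of all genes) and 0 were lower (2.66%), and 4 had CJL values all above the Ctrl values (9.52% of all genes). Sqle measured 18.6, 23.1 and 24.7 FPKM in CJL mice and 12.6, 16 and 16.1 FPKM in Ctrl mice (log2 fold change 0.57, SE 0.139, limma adjusted p = 0.495). Hmgcs1 measured 68.9, 76.4 and 83.4 FPKM in CJL mice and 58, 58.5 and 60.1 FPKM in Ctrl mice (0.37, SE 0.0906, limma adjusted p = 0.495). In both genes each CJL library was above each Ctrl library. Fdft1 measured 21.3, 27 and 24.7 FPKM in CJL mice and 19.2, 20.6 and 18.5 FPKM in Ctrl mice (0.32, SE 0.0938, limma adjusted p = 0.623). Stard4 measured 6.18, 6.89 and 7.16 FPKM in CJL mice and 5.6, 4.76 and 5.48 FPKM in Ctrl mice (0.35, SE 0.130, limma adjusted p = 0.628). Insig1 measured 24.6, 29.6 and 32.5 FPKM in CJL mice and 21.8, 24 and 25.3 FPKM in Ctrl mice (0.28, SE 0.145, limma adjusted p = 0.677). The CJL and Ctrl values overlapped for Insig1 and not for Fdft1 or Stard4. The median of the enzymes was 0.21, against 0.03 for all genes, and 16 of 18 were above 0, against 57% of all genes. The 18 enzymes summed to 309.4 to 371.8 FPKM in CJL libraries and 290.1 to 298.6 FPKM in Ctrl libraries. Without ZT1 Ctrl replicate 2 the enzymes' median was 0.12, and leaving out each of the other libraries gave 0.15 to 0.29. Markers of other tissue differed in level too, with 0 called. The 7 ependymal markers had a median log2 fold change of 1.42, of which 6 passed the unadjusted threshold of 0.05 upward, and summed to 30.5 to 43.9 FPKM in CJL libraries and 10.6 to 22.4 FPKM in Ctrl libraries. The 9 markers of thalamus and hypothalamus had a median of 1.25, with 3 higher at that threshold, and summed to 86.1 to 442.1 FPKM in CJL libraries and 30.7 to 84.1 FPKM in Ctrl libraries. The 9 striatal markers had a median of -0.66, with 9 of 9 below 0 and 2 lower at that threshold, and summed to 582.4 to 1384.1 FPKM in CJL libraries and 1230 to 1414.9 FPKM in Ctrl libraries. The 10 myelin markers had a median of 0.24, with 0 at that threshold, and summed to 1680.1 to 2863.8 FPKM in CJL libraries and 1384.2 to 1809.9 FPKM in Ctrl libraries. The part of these tissues in the members' differences was not tested. Mitochondrial transcripts made up 14.3% to 16.6% of the FPKM in CJL libraries and 16.5% to 19.5% in Ctrl libraries. The ZT1 CJL group had the highest mean of the 4 NAc groups for 11 of 18 enzymes (30.7% of all genes) and the ZT1 Ctrl group the lowest for 11 (27.9%).

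The other NAc comparisons gave 0 calls by limma as well. At ZT13, CJL against Ctrl, 2 enzymes were lower at an unadjusted P under 0.05 (3.01% of all genes) and 0 higher (5.31%). Hsd17b7 measured 4.86, 4.48 and 4.5 FPKM in CJL mice and 5.75, 5.45 and 5.53 FPKM in Ctrl mice, with no overlap (log2 fold change -0.27, SE 0.0991, limma adjusted p = 0.549). Abca1, the exporter of cholesterol to apolipoproteins, measured 6.25, 5.97 and 6.99 FPKM in CJL mice and 8, 7.1 and 7.81 FPKM in Ctrl mice (-0.25, SE 0.0981, limma adjusted p = 0.568). Each CJL value lay below each Ctrl value, without passing the test. The same held for 875 of the 15573 genes tested. Fdps measured 21.6, 17.9 and 18.3 FPKM in CJL mice and 21.5, 26.2 and 22.8 FPKM in Ctrl mice (-0.29, SE 0.125, limma adjusted p = 0.593). Fdft1 measured 21.5, 20.4 and 20.7 FPKM in CJL mice and 21.8, 23.9 and 23.1 FPKM in Ctrl mice (-0.13, SE 0.0938, limma adjusted p = 0.708). Srebf2 measured 39.1, 34.2 and 35.3 FPKM in CJL mice and 36.2, 43.4 and 44 FPKM in Ctrl mice (-0.18, SE 0.108, limma adjusted p = 0.669). The values overlapped for Fdps and Srebf2. The median over the enzymes was -0.02, and over all genes 0.04. The 7 ependymal markers had a median of 0.71, with 7 above 0, and the 9 striatal markers -0.12, with 9 below 0. The 7 cortex markers had -0.45, with 5 below 0, and the 9 of thalamus and hypothalamus 0.42, with 6 above 0. The part of these tissues in the members' differences was not tested.

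For ZT13 against ZT1 in the NAc of Ctrl mice, 4 enzymes were higher at an unadjusted P under 0.05 (5.21% of all genes) and 0 lower (4.88%). The ZT1 Ctrl libraries here also stand in the NAc comparison of CJL and Ctrl mice at ZT1, so the fold changes are not independent. Sqle measured 18.3, 19.6 and 20.7 FPKM at ZT13, and 12.6, 16 and 16.1 FPKM at ZT1 (log2 fold change 0.39, SE 0.139, limma adjusted p = 0.362). Fdft1 measured 21.8, 23.9 and 23.1 FPKM at ZT13, and 19.2, 20.6 and 18.5 FPKM at ZT1 (0.24, SE 0.0938, limma adjusted p = 0.418). Hmgcs1 measured 69.5, 71 and 65.8 FPKM at ZT13, and 58, 58.5 and 60.1 FPKM at ZT1 (0.22, SE 0.0906, limma adjusted p = 0.43). In each of the 3 the ZT13 libraries lay above the ZT1 libraries, as they did for 1360 of the 15573 genes tested. Cyp46a1 measured 73, 77.1 and 79.8 FPKM at ZT13, and 66.8, 60.2 and 69.6 FPKM at ZT1 (0.23, SE 0.103, limma adjusted p = 0.492). Srebf2 measured 36.2, 43.4 and 44 FPKM at ZT13, and 34.6, 36.3 and 37.3 FPKM at ZT1 (0.19, SE 0.108, limma adjusted p = 0.583). Here the values of Srebf2 overlapped and those of Cyp46a1 did not. The median over the enzymes was 0.07, and over all genes -0.01. The 7 cortex markers had a median of 1.44, of which 5 passed the unadjusted threshold upward and 5 had ZT13 values all above the ZT1 values, and summed to 143.6 to 189.4 FPKM at ZT13, and 39.3 to 82.9 FPKM at ZT1. Of the 6 endothelial markers 3 were higher and 1 lower at that threshold, and the 6 neuron markers had a median of 0.12 with 0 past it. The part of these cells and tissue in the members' differences, that of Cyp46a1 included, was not tested.

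In the NAc of CJL mice 4 enzymes were lower at ZT13 than at ZT1 at an unadjusted P under 0.05 (2.46% of all genes) and 0 higher (2.75%). These libraries also stand in the NAc comparisons above and in the difference of the CJL effect below, so these results are not independent. Fdps measured 21.6, 17.9 and 18.3 FPKM at ZT13, and 22.4, 30 and 27.6 FPKM at ZT1, with no overlap (log2 fold change -0.47, SE 0.125, limma adjusted p = 0.918). Hmgcs1 measured 67.1, 57.9 and 69.7 FPKM at ZT13, and 68.9, 76.4 and 83.4 FPKM at ZT1 (-0.23, SE 0.0906, limma adjusted p = 0.938). Fdft1 measured 21.5, 20.4 and 20.7 FPKM at ZT13, and 21.3, 27 and 24.7 FPKM at ZT1 (-0.21, SE 0.0938, limma adjusted p = 0.938). The ranges of Hmgcs1 and Fdft1 overlapped. Scap measured 24.8, 23.3 and 24.1 FPKM at ZT13, and 21.7, 21.4 and 23.2 FPKM at ZT1 (0.12, SE 0.0686, limma adjusted p = 0.954). Stard4 measured 6.08, 4.69 and 6.56 FPKM at ZT13, and 6.18, 6.89 and 7.16 FPKM at ZT1 (-0.23, SE 0.130, limma adjusted p = 0.954). The ZT13 libraries were higher for Scap, without passing the test, and overlapped the ZT1 libraries for Stard4. Of all 15573 genes tested, 887 had ZT13 values all higher and 818 all lower. The median over the enzymes was -0.12, and over all genes 0. The 10 myelin markers had a median of -0.21, with 10 below 0, and the 9 striatal markers 0.33, with 9 above 0. The 9 markers of thalamus and hypothalamus had -0.72, with 8 below 0. The part of these cells and tissues in the members' differences was not tested. The ZT13 minus ZT1 difference of the CJL effect was -0.63 for Fdps (SE 0.176, limma adjusted p = 0.644), -0.45 for Hmgcs1 (SE 0.128, adjusted p = 0.658) and -0.45 for Fdft1 (SE 0.133, adjusted p = 0.677). It was -0.33 for Srebf2 (SE 0.153, limma adjusted p = 0.767) and -0.28 for Abca1 (SE 0.139, adjusted p = 0.769), and 4 enzymes were negative at an unadjusted P under 0.05 (3.56% of all genes) and 0 positive (2.9%). The median of this difference was -0.21 over the enzymes, and 0.01 over all genes.

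**Figure D3:**
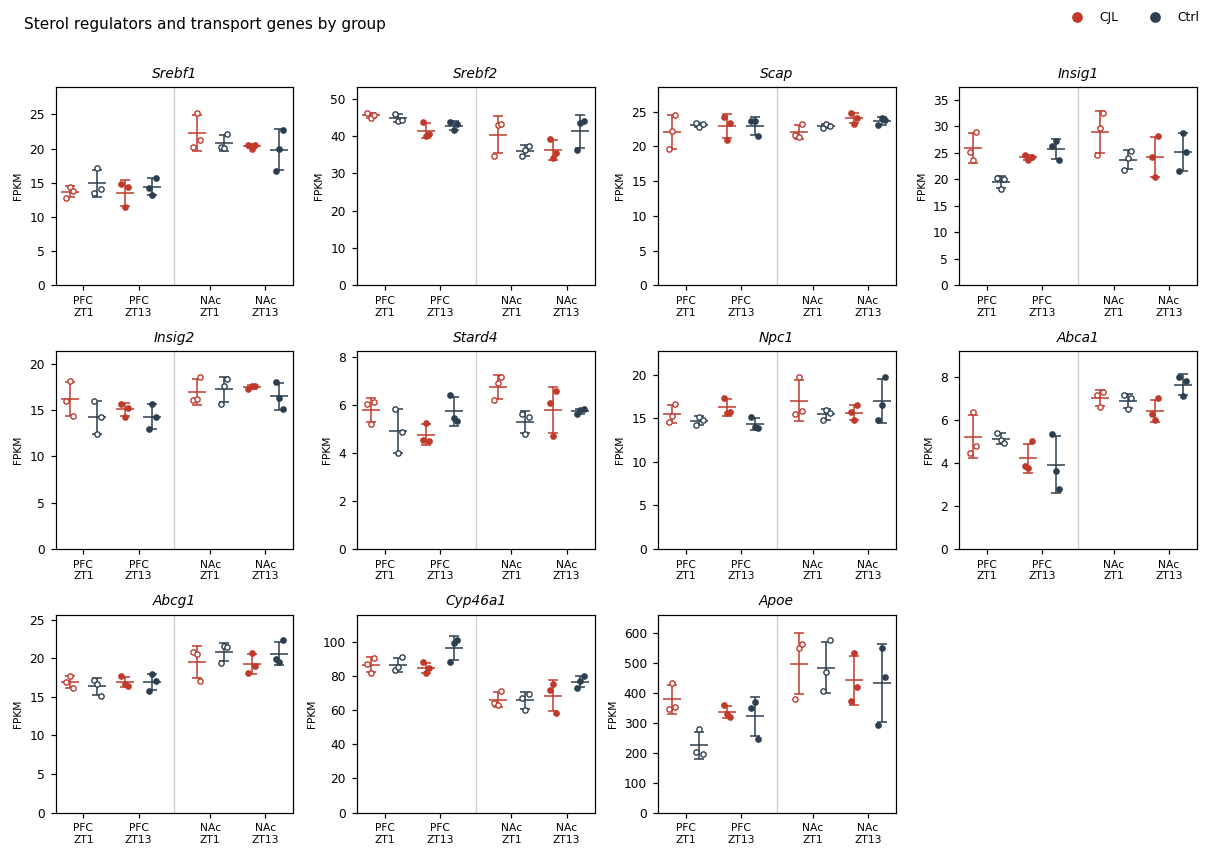
FPKM of the 5 regulators and 6 transport genes in each library, drawn as for the enzymes (open ZT1, filled ZT13, red CJL, dark blue Ctrl, mean ± SD, n = 3). Srebf1 and Abca1 lie higher in NAc than in PFC in most libraries, and Cyp46a1 lies lower in every NAc library.

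Between the regions, 16 members differed in CJL mice and 13 in Ctrl mice, with 6 libraries on each side. All genes together shifted by a median log2 fold change of 0.14 in CJL mice and 0.11 in Ctrl mice for NAc against PFC, a shift that was 0.008 and 0.01 with median-of-ratios scaling, so member values are read against it. In CJL mice 13 members rose and 3 fell, in a comparison where 37.9% of all genes rose and 18.4% fell. In Ctrl mice 10 rose and 3 fell, where 33.5% of all genes rose and 16.9% fell. In CJL mice NAc values lay all above the PFC values for 3678 of the 16072 genes tested and all below for 1870. In Ctrl mice these counts were 2317 and 1266. Among the members they were 2 and 2 in CJL mice, and 3 and 2 in Ctrl mice. The libraries of both regions were treated as separate samples. Base quality was lower in each NAc library than in each PFC library, per the study's read statistics, so region and sequencing quality cannot be told apart.

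Among regulators, Srebf1, which encodes the SREBP of fatty acid synthesis, was higher in NAc. It ranged over 20, 20.5 and 25.2 FPKM (lowest, median and highest of 6) in the NAc of CJL mice and 11.4, 14.1 and 14.8 FPKM in the PFC, with no overlap (log2 fold change 0.65, SE 0.085, limma adjusted p = 2.53e-06). In Ctrl mice it ranged over 16.8, 20.2 and 22.8 FPKM in NAc and 13.2, 14.2 and 17.1 FPKM in PFC, and the lowest NAc value lay inside the PFC range (0.47, SE 0.085, limma adjusted p = 0.000131). Srebf2 fell in NAc, with a log2 fold change of -0.19 in each lighting (limma adjusted p = 0.0111 in CJL mice and 0.0138 in Ctrl mice), and these calls were lost without the 7 libraries high in neighbouring-tissue markers. Insig2 rose by 0.24 in Ctrl mice.

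Of the transport genes, Abca1 was higher in NAc, with 5.97, 6.8 and 7.3 FPKM in NAc against 3.74, 4.63 and 6.34 FPKM in PFC in CJL mice (log2 fold change 0.52, SE 0.120, limma adjusted p = 0.000986). In Ctrl mice it had 6.49, 7.11 and 8 FPKM in NAc against 2.77, 4.98 and 5.39 FPKM in PFC (0.71, SE 0.120, limma adjusted p = 6.43e-05), and these did not overlap. Cyp46a1, a gene of neurons, was lower in NAc. It had 58.3, 67.5 and 75.4 FPKM in NAc against 81.6, 85.8 and 90.4 FPKM in PFC of CJL mice (-0.35, SE 0.0615, limma adjusted p = 6.49e-05), and 60.2, 71.3 and 79.8 FPKM against 83.2, 89.6 and 100.7 FPKM in Ctrl mice (-0.36, SE 0.0615, limma adjusted p = 6.83e-05). No NAc library reached the lowest PFC library. Markers of neurons moved the same way, with 4 of 6 called lower and 1 called higher in each lighting and a median of -0.52 in CJL mice and -0.37 in Ctrl mice. They summed to 1274.3 to 1512.4 FPKM in NAc against 1954.6 to 2231.6 FPKM in PFC of CJL mice, and to 1256.6 to 1497.7 FPKM against 1978.9 to 2202.7 FPKM in Ctrl mice, and their part in the difference of Cyp46a1 was not tested. Apoe had 293.5, 461.3 and 575.1 FPKM in NAc against 195.6, 261.9 and 368.6 FPKM in PFC of Ctrl mice (0.76, SE 0.153, limma adjusted p = 0.000409), and its log2 fold change in CJL mice was 0.38 (adjusted p = 0.0397). Abcg1 had 19.4, 20.6 and 22.3 FPKM in NAc against 15.1, 16.9 and 17.9 FPKM in PFC of Ctrl mice (0.31, SE 0.0605, limma adjusted p = 0.000269), and 0.19 in CJL mice. The Ctrl values of Abcg1 did not overlap between the regions, and those of Apoe did. Stard4 rose by 0.24 in CJL mice. The CJL calls of Stard4 and Apoe were lost in 7 and 8 of the 12 runs that left out 1 library. They were lost in 5 and 3 of the 8 other alternatives.

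Of the 18 enzymes, 8 rose and 1 fell in CJL mice and 5 rose and 1 fell in Ctrl mice. Their median log2 fold change was 0.09 in CJL mice, against 0.14 for all genes, and 0.12 in Ctrl mice, against 0.11. As a set the enzymes therefore lay near the shift of all genes. The one that fell in both was Hsd17b7, at 4.48, 4.71 and 5 FPKM in NAc against 5.88, 6.84 and 7.21 FPKM in PFC of CJL mice (log2 fold change -0.48, SE 0.0642, limma adjusted p = 3e-06). Its Ctrl values were 4.32, 5.21 and 5.75 FPKM in NAc against 5.88, 6.28 and 6.85 FPKM in PFC (-0.29, SE 0.0642, limma adjusted p = 0.000839), again without overlap. Idi1 had 9.03, 11 and 12.2 FPKM in NAc against 7.51, 8.41 and 9.03 FPKM in PFC of CJL mice (0.37, SE 0.0866, limma adjusted p = 0.00125), and rose by 0.35 in Ctrl mice. Nsdhl, a sterol dehydrogenase, had 9.54, 9.85 and 13.8 FPKM in NAc against 8.08, 8.23 and 9.94 FPKM in PFC of CJL mice (0.32, SE 0.0803, limma adjusted p = 0.00197). Cyp51 had 14.3, 17.8 and 18.3 FPKM in NAc against 13.1, 13.9 and 14.9 FPKM in PFC of Ctrl mice (0.29, SE 0.0616, limma adjusted p = 0.000563). The ranges of Nsdhl and Cyp51 overlapped between the regions. Further enzymes that rose in both lightings were Dhcr7, 7-dehydrocholesterol reductase (0.36 in CJL mice and 0.46 in Ctrl mice), Acat2 (0.22 and 0.30), Sc5d (0.17 and 0.23) and Cyp51 (0.16 in CJL mice). Nsdhl, Sqle (0.27) and Lss (0.28) passed the test in CJL mice and not in Ctrl mice, and the difference between the lightings was not tested. The calls of Srebf1, Abca1, Cyp46a1 and Hsd17b7 held under every alternative run in both lightings, and those of Abcg1, Acat2, Apoe, Cyp51 and Dhcr7 did so in Ctrl mice. Median-of-ratios scaling removes the shift of all genes. With it 8663 of the 16072 genes tested were called in CJL mice and 7576 in Ctrl mice. Of the 29 members 8 were called in CJL mice. There Cyp51, Apoe, Sqle, Acat2, Abcg1, Stard4, Nsdhl, Sc5d, Lss and Dhcr7 lost their calls and 6 members kept theirs. In CJL mice 2 gained one, both lower in NAc (Fdft1, -0.17, and Tm7sf2, -0.24). In Ctrl mice Insig2 and Sc5d lost theirs, and Fdft1 (-0.14) and Ebp (-0.36) gained one. After the GC and length correction Idi1 lost its call in both lightings (0.10 in CJL mice and 0.12 in Ctrl mice) and Sc5d changed sign in CJL mice. The 10 myelin markers were higher in NAc, with a median of 0.48 in CJL mice (6 rose) and 0.53 in Ctrl mice (9 rose). The 9 markers of thalamus and hypothalamus had 2.19 in CJL mice (6 rose, 1 fell) and 1.8 in Ctrl mice (6 rose, 2 fell). The 7 ependymal markers had 1.76 in CJL mice (7 rose) and 1.02 in Ctrl mice (5 rose). The 6 endothelial markers had -0.49 and -0.47, with 6 called lower in each lighting. The part of these cells and tissues in the members' differences was not tested.

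**Figure D4:**
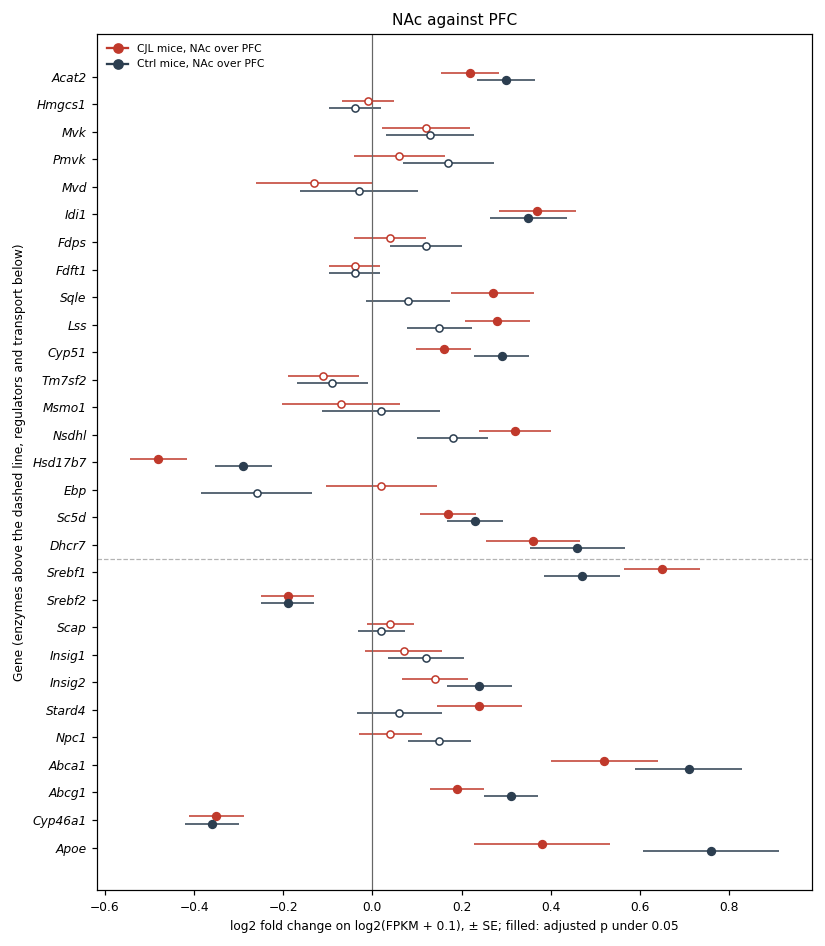
Log2 fold changes on log2(FPKM + 0.1), NAc over PFC, with SE for the 29 members, in CJL mice (red) and Ctrl mice (dark blue), with 6 libraries per region and lighting. Filled points have an adjusted p under 0.05 by limma, 16 members in CJL mice and 13 in Ctrl mice.

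The effect of CJL itself was not shown to differ between regions for any member. At ZT1 the NAc minus PFC difference was -0.34 for Acat2 (SE 0.130, limma adjusted p = 0.368), -0.44 for Pmvk (SE 0.203, adjusted p = 0.445), -0.28 for Tm7sf2 (SE 0.159, adjusted p = 0.532), -0.21 for Insig2 (SE 0.147, adjusted p = 0.603) and -0.73 for Apoe (SE 0.307, adjusted p = 0.408), with 0 calls by limma and 3 members at an unadjusted P under 0.05, all negative (6.16% of all genes were negative and 4.6% positive). At ZT13 Hsd17b7 had -0.41 (SE 0.128, limma adjusted p = 0.249), the only member at an unadjusted P under 0.05 (4.77% of all genes were negative and 7.86% positive), Cyp51 -0.23 (SE 0.123, adjusted p = 0.434) and Tm7sf2 0.23 (SE 0.159, adjusted p = 0.551). Npc1 had -0.29 (SE 0.141, limma adjusted p = 0.404) and Abca1 -0.39 (SE 0.239, adjusted p = 0.505).

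Other genes of sterol handling and fatty acid genes driven by SREBP were read from lists of 16 and 10 genes. In the PFC, CJL against Ctrl, 0 of either list passed limma's test at ZT1 or ZT13. Of all genes 1.17% rose and 0.416% fell at ZT1, and 0.0201% rose and 0% fell at ZT13. The fatty acid list had a median log2 fold change of 0.08 at ZT1 (8 of 10 above 0) and 0.16 at ZT13 (10 of 10 above 0). At ZT13 the median of all genes was -0.02, with 6594 of 14914 above 0. With an unadjusted P under 0.05, 3 fatty acid genes were higher at ZT13 (5.73% of all genes) and 0 lower (6.92%). In Ctrl mice at ZT13 against ZT1, Npc2, the soluble partner of NPC1, rose with 14 ± 0.327 FPKM at ZT13 and 11 ± 1.74 FPKM at ZT1 (log2 fold change 0.36, limma adjusted p = 0.0394). Lrp8, a receptor of apolipoprotein E and reelin, fell, with 8.77 ± 0.888 FPKM at ZT13 and 18.2 ± 5.21 FPKM at ZT1 (-1.0, limma adjusted p = 0.0412). Of the 16 genes 1 thus rose and 1 fell, where 8.8% of all genes rose and 3.54% fell. The fatty acid list, with 0 called, had a median log2 fold change of -0.12 there, and the enzymes of cholesterol synthesis 0.22. Between the regions, 37.9% of all genes rose and 18.4% fell in CJL mice, and 33.5% rose and 16.9% fell in Ctrl mice. Of the 16 genes, 4 rose and 3 fell in CJL mice and 6 rose and 3 fell in Ctrl mice. Among them were Vldlr, a receptor of lipoproteins (0.85 and 0.82), Mbtps1, the protease that cuts SREBP in the Golgi (0.39 and 0.45), and Abca7, an ABC transporter (-0.31 and -0.52). Of the 10 fatty acid genes 5 rose and 0 fell in CJL mice and 6 rose and 1 fell in Ctrl mice, with Acly, which makes cytosolic acetyl-CoA, at 0.55 and 0.79, Elovl6 at 0.74 and 0.60 and Fads2 at 0.53 and 0.61.

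Reads of some members could also come from overlapping genes. In the GENCODE M21 annotation of mm10, 26.7% of the exon bases of Fdps are shared with Gm43738, a protein-coding gene on its strand, and 18.3% of those of Fdft1 with Ctsb on the other strand. The strand setting of the libraries is not given in the sources used here. Smaller shares are 13.2% for Scap, 12.1% for Tm7sf2 (with Vps51, a protein-coding gene on its strand), 12.1% for Hmgcs1 and 9.2% for Idi1. Npc1 shares 5.3%, Cyp51 3.8%, Lss 3.5% and Srebf1 3.1%. Values of these members and of Fdps and Fdft1 are uncertain to that extent. The exons of Mvd (chromosome 8, 122433596 to 122443422), Mvk, Pmvk, Acat2, Insig1 (chromosome 5, 28071363 to 28078662), Sqle and Apoe (chromosome 7, 19696109 to 19699188) share 0%.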

How the data were processed

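RNA was measured in 24 libraries of dissected PFC and NAc. The authors deposited FPKM per gene and library, made per the submitters' notes with FastQC 0.11.9, HISAT2, StringTie and DESeq2 on mm10; the 8 tables of the authors' own folds and p-values were not used. FPKM give no counts, so counting error cannot be computed and the spread between libraries is the only error. Values were taken as log2(FPKM + 0.1), genes with at least 1 FPKM in at least 3 libraries were kept (14914 in PFC, 15573 in NAc, 16072 in all), and 1 mean per group was estimated in R 4.3.3 by limma 3.58.1, with the eBayes trend option and 2-sided tests, with Benjamini-Hochberg adjustment over all genes of a comparison. A fold change on this scale understates changes of low genes. Promoter motifs were searched on both strands. Tables were made with Python 3.11.15, pandas 2.3.3 and numpy 2.4.6, and figures with matplotlib 3.10.9. Members and lists were chosen with earlier results of these data known. Library values and full statistics are given for called members, at most 6 per comparison by smallest P, or, with none called, for 3 enzymes and 2 regulators or transport genes by smallest P, with Hsd17b7 in Ctrl mice (NAc against PFC) added to go with CJL mice; from the other pathway lists at most 3 called genes are named, Abca7 being added in CJL mice to go with Ctrl mice. Alternatives were pseudocount 1, no filter, 2 scalings, a fit of the compared groups alone, a replicate block, each library left out, the 7 libraries with high neighbouring-tissue markers left out, and, chosen after seeing the data, a correction for GC content and transcript length (20 bins, 2 rounds).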

Additional observations from a re-analysis of the deposited data

How the results depend on the processing

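Of the called members, Mvd, Mvk and Acat2 (PFC Ctrl, ZT13 against ZT1), Srebf1, Abca1, Cyp46a1 and Hsd17b7 (NAc against PFC, both lightings) and Abcg1, Acat2, Apoe, Cyp51 and Dhcr7 (NAc against PFC, Ctrl mice) kept direction and call under every alternative. For PFC ZT1, CJL against Ctrl, the 4 calls became 3 with pseudocount 1, 1 with median-of-ratios scaling, quantile normalization or the GC and length correction (chosen after seeing the data), and 0 with no filter, the 2 groups alone, or without the libraries high in neighbouring-tissue markers. With the replicate block 0 members were called there and 7 in PFC Ctrl, ZT13 against ZT1. Deviations of same-numbered PFC and NAc libraries from their group means correlated with r of 0.0175 to 0.134 (12 pairs, median 0.0379). Other numbers gave -0.15 to 0.109 (24 pairs, median -0.0298). Deviations within a group sum to 0, so the other pairs are not an independent reference. Higher values in same-numbered pairs go with lower ones in the others. Whether the numbers mark shared mice is not known. The regions were compared without pairing, and the replicate block does not model the mouse. PFC Ctrl, ZT13 against ZT1 had 3 calls with the 2 groups alone, the PFC interaction 1 without the libraries high in those markers, and NAc against PFC in CJL mice 8, 8 and 9 with median-of-ratios scaling, quantile normalization and the GC and length correction. Among all genes these runs called 285, 89, 8663, 8584 and 8852, in that order. In NAc against PFC of CJL mice, Sc5d had -0.08 after the GC and length correction, a reversed sign, and the cause was not tested.

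Medians moved as follows, as log2 fold changes, with enzymes first and regulators with transport genes second where both moved. Median-of-ratios scaling gave 0.02 and 0.05 (Ctrl, NAc against PFC), -0.04 and 0.01 (CJL, NAc against PFC), -0.2 and 0 (PFC interaction), and for the second list 0.01 (PFC ZT1), -0.05 (PFC Ctrl times) and -0.06 (ZT13 region difference). Quantile normalization gave 0.02 and 0.08 (Ctrl regions), -0.2 and 0.03 (PFC interaction), and for the second list 0.05 (CJL regions), 0 (PFC ZT1) and -0.05 (PFC Ctrl times). The GC and length correction gave 0.01 and 0.08 (Ctrl regions), -0.02 and 0.04 (CJL regions), for the enzymes -0.2 (PFC interaction), 0.02 (PFC ZT13) and 0.12 (NAc Ctrl times), and for the second list 0.1 (PFC ZT1), -0.06 (PFC Ctrl times) and -0.08 (ZT13 region difference). Without the libraries high in neighbouring-tissue markers they were -0.15 and -0.07 (PFC ZT13), for the enzymes 0.13 (NAc Ctrl times) and -0.1 (ZT1 region difference), and for the second list 0.13 (PFC Ctrl times), -0.13 (PFC interaction) and -0.06 (NAc interaction).

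Leaving out 1 library at a time gave 0 to 5 calls (PFC ZT1), 4 to 9 (PFC Ctrl times), 0 to 5 (PFC interaction) and 11 to 16 (CJL regions, 11 without NAc ZT13 CJL replicate 3). Among all genes these runs called 6 to 407, 313 to 2848, 4 to 796 and 8470 to 8782, in that order. Medians of the enzymes ranged over 0.14 to 0.23 (PFC Ctrl times), -0.12 to -0.01 (PFC ZT13), -0.3 to -0.19 (PFC interaction), -0.3 to -0.11 (NAc interaction), 0.03 to 0.14 (NAc Ctrl times), -0.01 to 0.14 (ZT13 region difference), 0.12 to 0.29 (NAc ZT1), -0.2 to -0.05 (NAc CJL times), -0.06 to 0.05 (NAc ZT13), -0.06 to 0.01 (PFC CJL times), -0.05 to 0.05 (ZT1 region difference), 0.06 to 0.14 (CJL regions) and 0.08 to 0.16 (Ctrl regions). Over all alternatives other than those, the genes called among all genes numbered 8 to 222 (PFC ZT1) and 285 to 2373 (PFC Ctrl times). Those of regulators with transport genes ranged over 0.04 to 0.11 (PFC ZT1), -0.01 to 0.09 (PFC Ctrl times), -0.11 to -0.03 (PFC CJL times), 0 to 0.15 (NAc ZT1), -0.16 to 0.01 (NAc ZT13), -0.18 to -0.03 (NAc CJL times), -0.22 to -0.07 (NAc interaction), -0.07 to 0.04 (ZT1 region difference) and -0.08 to 0.03 (ZT13 region difference). With 3 libraries a group and FPKM alone, differences of low genes are limited by the spread between libraries alone.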
